A study of Homo sapiens with 16 samples.

Results

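The difference in the response to bacterial lipopolysaccharide (LPS) between 2 human monocytic cell lines, THP-1 and U937, was described gene by gene. For each gene the LPS-against-untreated change of U937 was subtracted from that of THP-1 on the log2(TPM + 1) scale, where TPM is the length-normalised relative abundance of a gene's transcripts. Members were genes whose group mean reached 5 TPM in 1 or more of the 4 groups, 9931 of the 27311 genes listed, and 9930 of them were among the 14398 genes that passed the filter for testing. The last member inside this limit was WHAMMP3, with a highest group mean of 5.001 TPM, and the first gene outside it was LRRC1, at 4.997 TPM.

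RNA was sequenced from 16 libraries of 4 lines, and 8 of them enter this difference, 2 in each group. The groups were THP-1 cells expressing dCas9-KRAB and given LPS-EK from E. coli K12 at 1 µg/ml for 4 hours, untreated THP-1 cells expressing dCas9-KRAB, U937 cells labelled as wild type and given LPS at 200 ng/ml for 4 hours, and untreated wild-type U937 cells. dCas9-KRAB is a Cas9 without cutting activity fused to a transcriptional repressor domain. Line, LPS dose and dCas9-KRAB differ together between the responses, so their parts in a difference cannot be told apart. The labels do not name the source of the LPS given to U937, so the preparation may differ as well. No label says whether the 2 libraries of a group came from separate cultures, so every p-value and standard error measures the spread between libraries, which may be technical. The other 8 libraries, of the T cell line Jurkat and the B cell line BJAB, with and without stimulation, add to the estimate of that spread per gene.

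LPS is sensed by the receptor TLR4, which binds it together with LY96 (MD-2), helped by the carrier protein CD14. Adaptors of the MYD88 and TICAM1 branches then activate the IkB kinases, NF-kB is released into the nucleus, and MAP kinases and interferon regulatory factors are engaged in parallel. In monocytes and macrophages the known early targets are cytokines, chemokines, adhesion molecules and the genes of inhibitors, such as NFKBIA and TNFAIP3, that end the signal.

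Depth, recovered as whole reads from the steps of the TPM values, was 8353664 and 6634668 reads in THP-1 after LPS, 7161600 and 8431295 in untreated THP-1, 6100202 and 7624966 in U937 after LPS and 4125221 and 7333573 in untreated U937. In the second THP-1 LPS library the recovered count of every gene described here was an even number, unlike in the other libraries. Its counts and depth are therefore likely overstated and are upper limits. Monocytic lineage markers summed to 10873.5 to 12008.7 TPM in the 4 THP-1 libraries and to 10061.3 to 12319.4 TPM in the 4 U937 libraries. In THP-1, 28 of the 36 markers stood at 1 TPM or more in all 4 libraries and 3 were at 0 throughout, against 25 and 5 in U937. CD14 was among those at 0 in U937. The sums hide differences between single markers. In U937 much of the sum came from ELANE, at 2600 to 3061 TPM, and CTSG, at 4656 to 7142 TPM. CSF1R stood at 39.3 to 59.9 TPM in THP-1 and 0.530 to 2.48 TPM in U937, while LYZ was similar, at 255 to 321 and 279 to 314 TPM. T lineage markers summed to at most 17.7 TPM in THP-1 and 29.6 TPM in U937, B lineage markers to at most 15.5 and 26.5 TPM, and erythroid and megakaryocytic markers to at most 3.72 and 11.2 TPM. CD3D, CD3E, MS4A1 and HBB were at 0 in all 8 libraries.

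The first LPS library of U937 stood apart from the rest. Over the members, the log2 difference between the libraries of a group had an SD of 0.393 in THP-1 after LPS, 0.286 in untreated THP-1, 0.965 in U937 after LPS and 0.305 in untreated U937. The members were split into 5 equal parts by transcript length, relative lengths being read from the TPM steps. Relative to untreated U937, the median log2 value of that library was 0.35 for the shortest transcripts and -1.10 for the longest. For the second U937 LPS library it was 0.05 and -0.11. Both THP-1 LPS libraries stayed between -0.23 and 0.05 in each length class. ACTB, the beta-actin gene, stood at 12423 and 13081 TPM in THP-1 after LPS, 12406 and 11688 TPM in untreated THP-1, 3779 and 8785 TPM in U937 after LPS, and 9599 and 8885 TPM in untreated U937. The median difference in response, THP-1 minus U937, was 0.35 over the members with all libraries, 0.00 after median-of-ratios scaling and -0.06 without that U937 library. Values without it are therefore given beside the results.

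**Figure D1:**
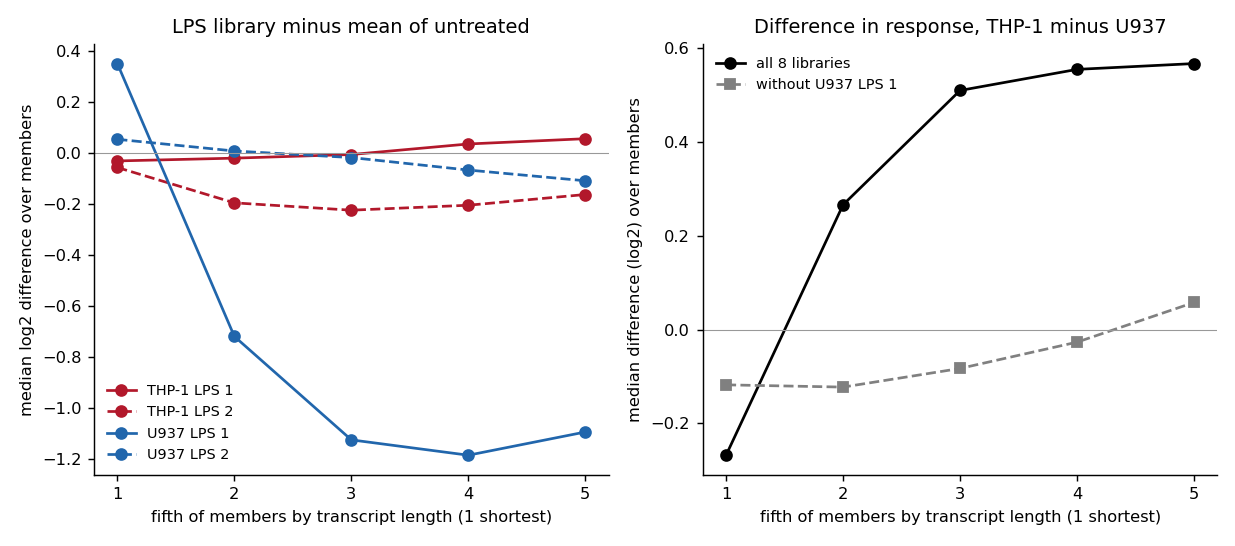
Left, median log2 difference of each LPS library from the mean of the untreated libraries of its line, over members in 5 length classes; right, median difference in response, THP-1 minus U937, with all 8 libraries and without the first U937 LPS library. The line of the first U937 LPS library starts at 0.35, reaches -1.19 in the next to longest class and ends at -1.10, and the class medians of the difference between -0.12 and 0.06 once it is left out, against -0.27 to 0.57 with it.

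Few genes differed in response beyond the spread between libraries. With limma and Benjamini-Hochberg adjustment over all tested genes, 2 of 9930 members passed an adjusted p of 0.05, both with a positive difference (0.0201% of the members). They were the growth factor binding protein gene IGFBP3 and the microRNA gene MIR221. The background over all tested genes was 0.0486% (7 of 14398), 0.0347% for the 5 positive and 0.0139% for the 2 negative. Without the second U937 LPS library, which leaves the first to stand for U937 alone, 2342 members were called (2038 positive, 304 negative), and without the first 2 were called, the same 2 genes. After median-of-ratios scaling the split over all tested genes was 3 positive and 2 negative, and after quantile normalization 2 and 2. Within THP-1 the same fit called 9 members higher after LPS, or 0.0906%, and none lower, beside a background of 0.118% higher and 0.0486% lower and 0.167% in either direction. Within U937 it called 3 members higher, or 0.0302%, and 1 lower, or 0.0101%, beside a background of 0.0208% higher, 0.00695% lower and 0.0278% in either direction.

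The members called in both lines were the chemokine genes CXCL10 and CCL4 and TNFAIP6, which encodes a secreted hyaluronan-binding protein. Another 6 were called in THP-1 and not in U937, among them IGFBP3, IL1B, MSC, TIFAB and FTH1. Of these 6, the difference between the lines was itself called for IGFBP3 and not for the other 5. Without regard to any test, 1451 members (14.6%) had all 4 LPS-against-untreated differences of THP-1 above all 4 of U937, and 911 (9.17%) had them below. In bulk RNA a smaller number of responding cells and less RNA per cell cannot be told apart. Over all tested genes the shares were 13.8% and 8.44%. Counts without overlap in the gene lists below stand beside the member shares of 14.6% and 9.17%. No list was tested against these shares. Without the first U937 LPS library, which leaves 2 differences for U937, 1654 members (16.7%) were above and 2245 (22.6%) below. Opposite movement was seen in part of the members: 386 (3.89%) had both LPS libraries above both untreated ones in THP-1 and below in U937, and 348 (3.50%) the reverse. Both lines moved up together in 172 members (1.73%) and down together in 946 (9.53%). Over all tested genes these 4 shares were 3.57%, 2.67%, 1.56% and 7.5%. Without the first U937 LPS library the order of the opposite movements turned, with 452 members (4.55%) up in THP-1 and down in U937 and 866 (8.72%) the reverse. Up together were then 367 (3.70%) and down together 1043 (10.5%), beside 4.19%, 7.01%, 3.67% and 8.35% of all tested genes in the same order.

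**Figure D2:**
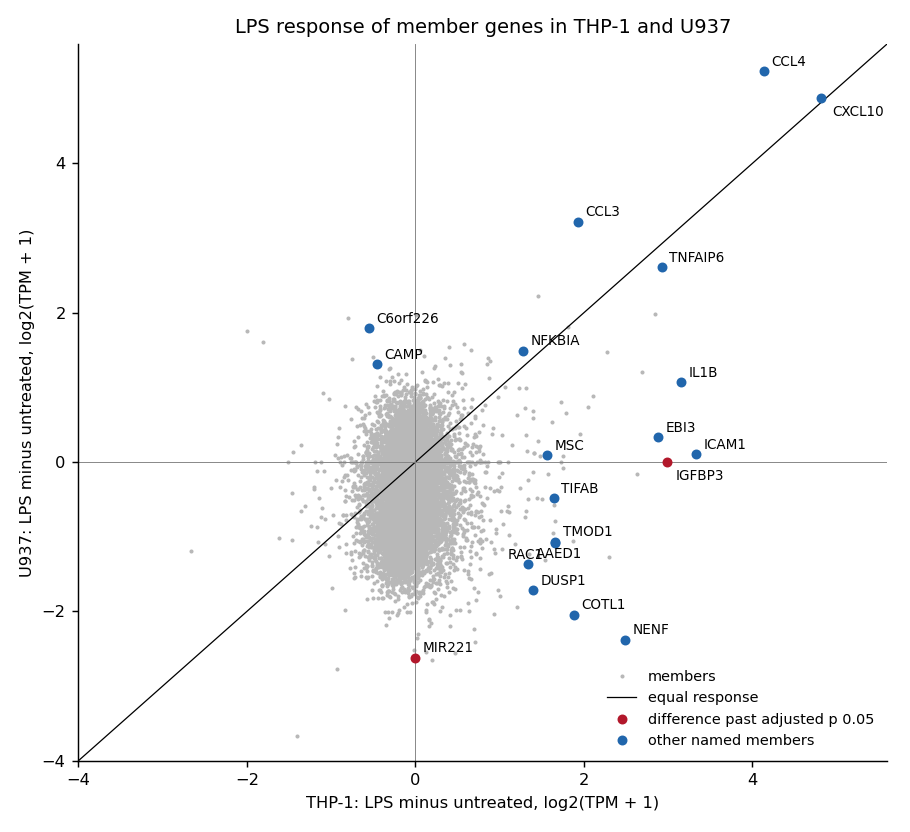
Each point is a member; the horizontal axis is the THP-1 response and the vertical axis the U937 response, both LPS minus untreated on the log2(TPM + 1) scale, and the diagonal marks equal responses. CXCL10, TNFAIP6 and NFKBIA lie near the diagonal with differences of -0.06, 0.31 and -0.21, IGFBP3 lies at 2.98 in THP-1 and 0.00 in U937, and COTL1 and NENF lie below 0 in U937 and above 0 in THP-1.

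IGFBP3 encodes a secreted protein that binds insulin-like growth factors in blood and tissue and limits their access to the receptor. Its level was 9.35 and 6.42 TPM in THP-1 after LPS, 0.228 and 0 TPM in untreated THP-1, and 0 in all 4 U937 libraries. Both THP-1 LPS libraries stood above the other 6. The gene passed the filter for testing and the limit for members through that group alone, so this separation is no added support. The gene's values rest on 47 and 28 recovered reads after LPS and 1 and 0 before it in THP-1, and the 28 is likely overstated. In U937, 3 reads of this gene would be 0.617 and 0.643 TPM in the LPS libraries and 1.22 and 0.685 TPM in the untreated ones, so lower levels were not detectable there. The difference in response was 2.98 ± 0.23 on the log2 scale (SE, n = 2 libraries per group; limma adjusted p = 0.000391), and it equals the change in THP-1 alone. The gene was at 0 in all Jurkat and BJAB libraries as well, and these zeros enter its SE. Its size depends on the pseudocount, at 5.44 with 0.1 and 1.32 with 5, and the adjusted p ran from 0.000103 to 0.122 over 21 alternatives. The call was lost with array weights and with the THP-1 and U937 libraries fitted alone (adjusted p = 0.0536 each), and with voom on the recovered reads (0.122).

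The insulin-like growth factor list held 9 members. The responses of 5 (55.6%) did not overlap with THP-1 higher and that of 1 (11.1%) with THP-1 lower, beside 14.6% and 9.17% of all members. The list's median difference was 0.85 with all libraries and 0.57 without the first U937 LPS library, beside 0.35 and -0.06 over all members. IGFBP6, another binding protein, was the one with THP-1 lower, and was chosen here after its values were seen. It stood at 0.542 and 0.624 TPM in THP-1 after LPS, 0.620 and 1.07 TPM in untreated THP-1, 12.6 and 9.04 TPM in U937 after LPS and 4.98 and 3.42 TPM in untreated U937. Its difference was -1.40 ± 0.41 (SE, n = 2; limma adjusted p = 0.603), and both U937 LPS libraries were above both untreated ones. IGFBP6 was a member through the U937 LPS group alone. The other 4 non-overlapping members with THP-1 higher were the receptor genes IGF1R and IGF2R at 0.92 and 1.14, the adaptor gene IRS2 at 0.85 and the binding protein gene IGFBP7 at 1.08, and none of them was called. Their THP-1 changes were 0.06, -0.06, 0.01 and 0.35 and their U937 changes -0.86, -1.21, -0.84 and -0.73, so these differences lay mostly in lower values after LPS in U937. Without the first U937 LPS library the differences were 0.57, 0.77, 0.85 and 0.87 and the U937 changes -0.51, -0.83, -0.83 and -0.52.

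The promoters of IGFBP3, of CXCL10, called in both lines, and of ICAM1, the gene of a leukocyte adhesion receptor, are shown because the first differed between the lines, the second responded in both and the third had the largest difference among the adhesion genes. They are the RefSeq windows of 250 bases before to 50 after the annotated start on GRCh38.p14. The windows are chr7:45921223-45921522 on the minus strand for IGFBP3, chr4:76023448-76023747 on the minus strand for CXCL10 and chr19:10270870-10271169 on the plus strand for ICAM1. Capitals mark matches, on either strand, to the NF-kB-type motifs GGG, any 5 bases, CC and GGAANNTCC, where N is any base.
IGFBP3: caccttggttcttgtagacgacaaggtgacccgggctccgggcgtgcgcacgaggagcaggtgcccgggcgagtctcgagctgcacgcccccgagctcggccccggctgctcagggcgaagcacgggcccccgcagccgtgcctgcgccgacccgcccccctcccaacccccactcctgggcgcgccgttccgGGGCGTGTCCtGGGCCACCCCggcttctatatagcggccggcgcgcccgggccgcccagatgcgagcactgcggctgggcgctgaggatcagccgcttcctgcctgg
CXCL10: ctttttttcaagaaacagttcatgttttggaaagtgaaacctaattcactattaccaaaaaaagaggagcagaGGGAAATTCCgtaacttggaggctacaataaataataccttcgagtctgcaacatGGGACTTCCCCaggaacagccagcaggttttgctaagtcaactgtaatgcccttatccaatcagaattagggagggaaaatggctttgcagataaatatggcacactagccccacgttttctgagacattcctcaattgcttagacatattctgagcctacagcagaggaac
ICAM1: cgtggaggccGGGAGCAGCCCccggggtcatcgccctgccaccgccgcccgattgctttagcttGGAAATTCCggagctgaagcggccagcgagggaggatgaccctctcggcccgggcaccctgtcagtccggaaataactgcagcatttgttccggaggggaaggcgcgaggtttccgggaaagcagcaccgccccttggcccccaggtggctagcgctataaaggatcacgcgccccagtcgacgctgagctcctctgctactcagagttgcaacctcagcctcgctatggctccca
The first motif was found in 58% of all 27305 RefSeq promoter windows and 73.5% of the 7683 that belong to members, and the second in 4.59% and 4.70%. IGFBP3 held the first motif only, while CXCL10 and ICAM1 held both, and in CXCL10 the match GGAAATTCC lies inside the match GGGAAATTCC. Among other genes searched, COTL1 held the first motif only, and IL1B, TNFAIP6, TIFAB and TAF10 held neither. A match of this length is a description of the sequence and not of binding.

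MIR221, the gene of a microRNA that lies on the X chromosome, passed with a difference of 2.62 ± 0.17 (SE, n = 2; limma adjusted p = 7.36e-05), and the whole of it came from untreated U937. It was listed at 0 in the THP-1 libraries, with or without LPS, and in both U937 LPS libraries, and at 4.86 and 5.46 TPM in untreated U937. These values are 1 and 2 reads of a very short gene, and 3 reads would be 7.38 and 7.68 TPM in the U937 LPS libraries. It was at 0 in all Jurkat and BJAB libraries too, so it passed the filters through untreated U937 alone, and its small SE comes from libraries at 0. At that depth a change was not detectable, and the p-value is no evidence of a response. With voom on the recovered reads the gene had an adjusted p of 0.766 (range over 20 alternatives 1.35e-06 to 0.766).

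**Figure D3:**
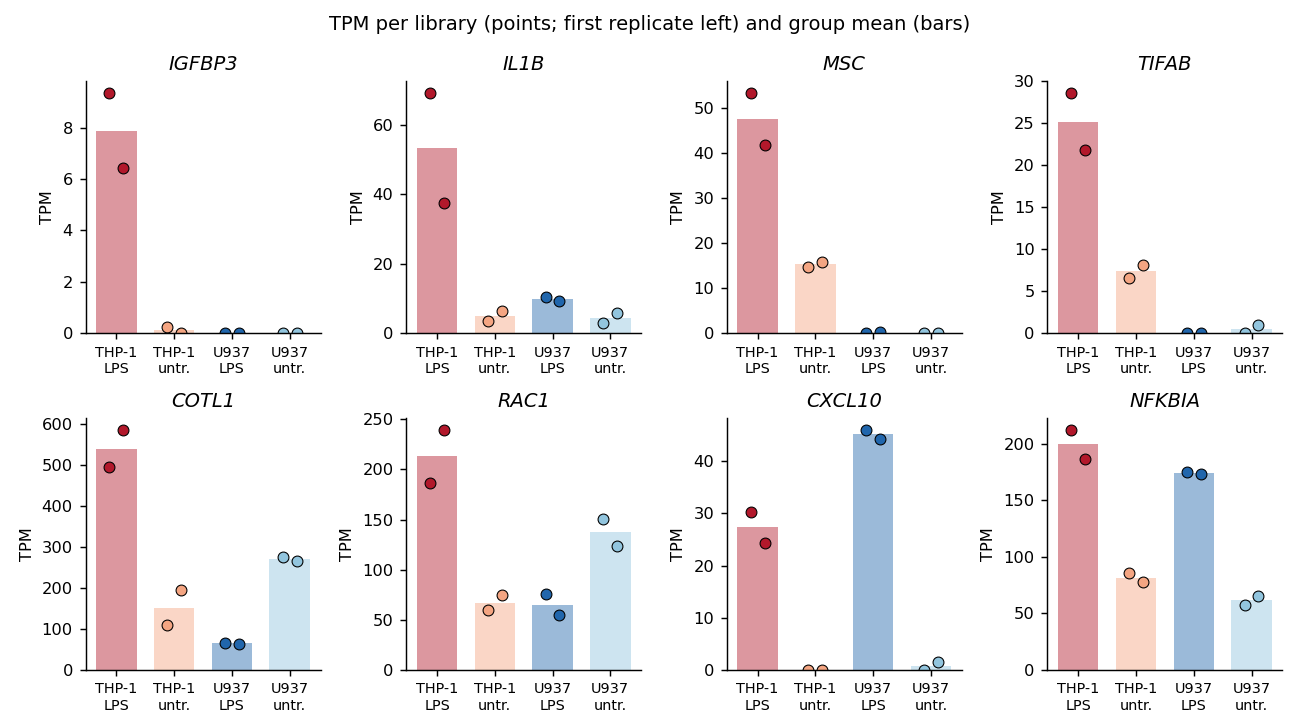
TPM of 8 members in each library (points) with the group mean (bars), THP-1 after LPS, THP-1 untreated, U937 after LPS and U937 untreated from left to right. IGFBP3, MSC and TIFAB are at or near 0 in U937, COTL1 and RAC1 lie above untreated after LPS in THP-1 and below it in U937, and CXCL10 and NFKBIA are higher in both lines.

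Just short of the threshold stood 5 members, all with a positive difference and a limma adjusted p of 0.0985. Among them COTL1 and RAC1 act on the actin cytoskeleton, and TMOD1, a capping protein of the slow-growing filament end, does too. COTL1, coactosin-like protein 1, binds filamentous actin and stood at 493 and 585 TPM in THP-1 after LPS, 108 and 194 TPM in untreated THP-1, 66.3 and 62.9 TPM in U937 after LPS, and 274 and 264 TPM in untreated U937. LPS libraries were thus the higher pair in THP-1 and the lower pair in U937, with no overlap in either line. Outside the second THP-1 LPS library these values rest on 415 to 3503 reads. The difference was 3.93 ± 0.65 (95% interval 2.5 to 5.35, n = 2), 3.96 without the first U937 LPS library, and it passed in 3 of 21 alternatives. COTL1 also varied within pairs of the other lines, at 65.9 and 207 TPM in stimulated BJAB and 109 and 195 TPM in untreated Jurkat. Its pairs were closer in stimulated Jurkat, at 154 and 152 TPM, and in untreated BJAB, at 332 and 376 TPM.

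RAC1, a small GTPase that drives membrane ruffling and the phagocyte oxidase, stood at 187 and 240 TPM in THP-1 after LPS, 59.6 and 74.2 TPM in untreated THP-1, 75.4 and 54.4 TPM in U937 after LPS and 150 and 124 TPM in untreated U937. Again the LPS pair was the higher one in THP-1 and the lower one in U937. The difference was 2.74 ± 0.45 (SE, n = 2) and 2.97 without the first U937 LPS library. TMOD1 was lower in level, at 5.27 and 8.27 TPM in THP-1 after LPS, 0.700 and 2.41 TPM in untreated THP-1, 0.632 and 1.56 TPM in U937 after LPS and 3.59 and 2.98 TPM in untreated U937. TMOD1 was a member through the THP-1 LPS group alone. Its difference was 2.73 ± 0.45, or 2.40 without the first U937 LPS library. AAED1, the gene of an antioxidant-domain protein, showed the same pattern: 23.3 and 24.6 TPM in THP-1 after LPS, 9.79 and 8.00 TPM in untreated THP-1, 3.09 and 3.22 TPM in U937 after LPS and 10.0 and 9.32 TPM in untreated U937. Its difference was 2.70 ± 0.45 (SE, n = 2). None of the 3 passed in either line alone. The actin cytoskeleton list held 27 members, of which 9 (33.3%) were without overlap and higher in THP-1 and 1 (3.70%) lower. Its median difference was 0.48 with all libraries and 0.13 without the first U937 LPS library, so COTL1 and RAC1 stood well above the rest of the list.

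The last gene at that adjusted p, MSC, encodes musculin, a helix-loop-helix transcription repressor. It stood at 53.4 and 41.9 TPM in THP-1 after LPS, 14.7 and 15.9 TPM in untreated THP-1, 0 and 0.137 TPM in U937 after LPS and 0 in both untreated U937 libraries. It rose in THP-1 (1.57 ± 0.17 on the log2 scale, n = 2; limma adjusted p = 0.00205; called in 17 of 21 alternatives) and was close to absent from U937. MSC was at 0 in all Jurkat and BJAB libraries as well, and these zeros enter its SE. The difference was 1.48 ± 0.23 (95% interval 0.96 to 1.99), or 1.38 without the first U937 LPS library. It passed in 5 of 21 alternatives, among them median-of-ratios scaling (adjusted p = 0.0416, range over alternatives 0.00459 to 0.806).

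Of the 17 members among myeloid transcription factors, the responses of 4 (23.5%) did not overlap with THP-1 higher and those of 2 (11.8%) with THP-1 lower. Their median difference was 0.69, and 0.04 without the first U937 LPS library.

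None of the receptor genes passed the test of the difference. TLR4 stood at 5.97 and 6.99 TPM in THP-1 after LPS, 8.50 and 9.28 TPM in untreated THP-1, 6.23 and 19.4 TPM in U937 after LPS and 30.6 and 26.9 TPM in untreated U937. LPS libraries lay below untreated ones in both lines, and the difference of 0.88 ± 0.52 (SE, n = 2; limma adjusted p = 0.746) became 0.13 without the first U937 LPS library. LY96 was at 0.425 and 1.96 TPM in THP-1 after LPS, 2.92 and 0.419 TPM in untreated THP-1, 18.9 and 11 TPM in U937 after LPS, and 14.8 and 10.7 TPM in untreated U937. CD14 was at 4.49 and 8.68 TPM in THP-1 after LPS, 6.31 and 5.42 TPM in untreated THP-1, and 0 in all U937 libraries. The untreated U937 libraries therefore had more TLR4 and LY96 RNA and no detected CD14 RNA, at a depth where 3 reads of CD14 are 0.450 to 0.887 TPM in these 4 libraries. These line levels were not tested here. The LPS pair and the untreated pair overlapped for LY96 and CD14 in each line, with differences of -0.38 ± 0.73, or -0.02 without the first U937 LPS library, and 0.09 ± 0.42.

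Among the 9 members of the receptor list LY86, which encodes MD-1, the partner of CD180, was the one without overlap with all libraries. It stood at 48.8 and 62.4 TPM in THP-1 after LPS, 52.2 and 48.7 TPM in untreated THP-1, 48.0 and 34.3 TPM in U937 after LPS and 20.1 and 22.2 TPM in untreated U937 (difference -0.78 ± 0.33, or -0.55 without the first U937 LPS library). SCARB1, a lipoprotein receptor, and ITGB2, the beta chain of the leukocyte integrins, had differences of 1.27 and 0.91. Without the first U937 LPS library these were 0.07 and 0.03. The list's median difference was 0.09, and 0.03 without that library.

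In the adaptor list, with 23 members, 4 (17.4%, beside 14.6% of all members) were without overlap and higher in THP-1 and none lower. The largest difference was that of TIFAB, the gene of an inhibitor of TIFA and TRAF6 signalling. TIFAB stood at 28.6 and 21.8 TPM in THP-1 after LPS, 6.59 and 8.10 TPM in untreated THP-1, 0 in both U937 LPS libraries, and 0 and 0.944 TPM in untreated U937. It rose in THP-1 (1.64 ± 0.26, n = 2; limma adjusted p = 0.0361), a call kept in 9 of 21 alternatives. The difference was 2.12 ± 0.37 (95% interval 1.31 to 2.94; adjusted p = 0.122, from 0.00533 to 0.806 over the alternatives). CHUK, the gene of IkB kinase alpha, had a difference of 1.08, and 0.67 without the first U937 LPS library. The list's median was 0.56, and -0.06 without it.

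Of the NF-kB subunits 4 were members, and NFKB1 and RELB were without overlap and higher in THP-1. NFKB1, the p105 and p50 gene, stood at 19.1 and 17.7 TPM in THP-1 after LPS, 7.78 and 5.09 TPM in untreated THP-1, 12.9 and 18.0 TPM in U937 after LPS and 12.4 and 15.5 TPM in untreated U937. The LPS pair was above the untreated pair in THP-1 and overlapped with it in U937. The difference was 1.28 ± 0.45 (SE, n = 2; limma adjusted p = 0.722) and 1.06 without the first U937 LPS library. For RELB it was 1.23 ± 0.96, and 0.84 without that library.

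Feedback inhibitors of NF-kB are themselves NF-kB targets. NFKBIA, which encodes IkB alpha, stood at 213 and 187 TPM in THP-1 after LPS, 85.5 and 77.3 TPM in untreated THP-1, 175 and 174 TPM in U937 after LPS and 57.3 and 65.6 TPM in untreated U937. Both lines had both LPS libraries above both untreated ones. The log2 difference between the responses was -0.21 ± 0.37 (95% interval -1.02 to 0.60), with adjusted p-values of 0.13 and 0.12 for the changes within THP-1 and U937. TNFAIP3, the gene of the deubiquitinase A20, stood at 21.2 and 13.2 TPM in THP-1 after LPS, 3.04 and 3.59 TPM in untreated THP-1, 4.23 and 18.2 TPM in U937 after LPS and 5.98 and 4.19 TPM in untreated U937. Its LPS libraries in U937 lay on different sides, and the difference of 1.31 ± 0.88 became 0.37 without the first of them. TNIP1, an A20 partner, had a difference of 0.98 with or 0.99 without it. The 13 members of this list had 2 (15.4%) without overlap, both higher in THP-1, and a median of 0.70, or 0.02 without the first U937 LPS library.

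IL1B, which encodes the pyrogenic cytokine interleukin 1 beta, had both LPS libraries above both untreated ones in each line. It stood at 69.2 and 37.4 TPM in THP-1 after LPS, 3.60 and 6.37 TPM in untreated THP-1, 10.3 and 9.22 TPM in U937 after LPS and 2.85 and 5.82 TPM in untreated U937. All THP-1 changes were larger than all U937 changes. It rose in THP-1 by 3.16 ± 0.37 on the log2 scale (n = 2; limma adjusted p = 0.00443), and the change in U937 was 1.07 ± 0.37 (adjusted p = 0.329). The difference was 2.09 ± 0.53 (95% interval 0.93 to 3.25; adjusted p = 0.408, from 0.045 to 0.904 over 21 alternatives) and between 1.65 and 2.52 in all of them. IL18R1, a receptor chain of the same cytokine family, had a difference of 1.36, and 0.43 without the first U937 LPS library. The 10 members of the interleukin 1 family list had 2 (20%) without overlap, both higher in THP-1, and a median of 0.46, or -0.04 without that library.

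EBI3, the gene of a secreted cytokine subunit, stood at 11.5 and 5.30 TPM in THP-1 after LPS, 0 and 0.454 TPM in untreated THP-1, 1.43 and 1.49 TPM in U937 after LPS and 2.82 and 0 TPM in untreated U937. Only the THP-1 LPS libraries of these 8 were above 3 TPM, and the difference was 2.55 ± 0.80 (limma adjusted p = 0.641). EBI3 reached the limit for members through the THP-1 LPS group alone, so this separation is no added support. VEGFA, an angiogenic factor and another of the 3 members among other cytokines, had a difference of 0.31. TNF, the tumour necrosis factor gene, stood at 5.00 and 5.92 TPM in THP-1 after LPS, 0.597 and 1.19 TPM in untreated THP-1, 1.27 and 2.64 TPM in U937 after LPS and 0.901 and 0.737 TPM in untreated U937. TNF too was a member through the THP-1 LPS group alone. Its difference was 1.13 ± 0.58, and 0.78 without the first U937 LPS library. TNFRSF10B and TNFRSF1B, receptors for TRAIL and for TNF, had differences of 1.59 and 1.28, and 0.50 and 0.75 without that library. Of 13 members of the tumour necrosis factor superfamily 3 were without overlap and higher in THP-1 and 1 lower, with a median of -0.05, or -0.10 without it. IL6 was listed at 0 in 7 of the 8 libraries and at 0.47 TPM in the second U937 LPS library, and was no member.

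Of the 3 members called in both lines, both chemokine genes changed by 4.14 to 5.24 log2 units in each. CXCL10, a ligand of CXCR3, stood at 30.3 and 24.3 TPM in THP-1 after LPS, 0 in both untreated THP-1 libraries, 46.1 and 44.3 TPM in U937 after LPS and 0 and 1.48 TPM in untreated U937. It rose in both lines (limma adjusted p = 4.5e-05 in THP-1 and 5.95e-05 in U937), and the difference was -0.06 ± 0.45 (95% interval -1.05 to 0.94, n = 2). CCL4, the gene of a chemokine that attracts monocytes and T cells, stood at 16.1 and 17.2 TPM in THP-1 after LPS, 53.2 and 25.3 TPM in U937 after LPS and 0 in all 4 untreated libraries. It rose in both lines (adjusted p = 0.000576 in THP-1 and 6.43e-05 in U937). The THP-1 values lay below the U937 values without overlap, with a difference of -1.10 ± 0.51 (adjusted p = 0.746), or -0.58 without the first U937 LPS library.

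CCL3, a related chemokine gene, stood at 9.53 and 10.6 TPM in THP-1 after LPS, 4.14 and 0.648 TPM in untreated THP-1, 83.6 and 33.6 TPM in U937 after LPS and 4.70 and 4.91 TPM in untreated U937 (difference -1.30 ± 0.74, n = 2), which was -0.65 on leaving out U937 LPS library 1 and -1.94 on leaving out library 2. CCL3 and CCL4 have near-identical copies in the genome, and since the files hold uniquely aligned reads their levels are uncertain. CCL2, the main monocyte attractant, was at 14.4 and 4.84 TPM in THP-1 after LPS, 2.81 and 0 TPM in untreated THP-1, 1182 and 565 TPM in U937 after LPS and 275 and 314 TPM in untreated U937. The LPS pair was the higher one in each line, on levels far apart, and the difference of 0.81 ± 0.82 was -0.32 with a pseudocount of 5 and 1.34 without the first U937 LPS library. The 7 members of the CC list had 1 without overlap, CCL4, and a median of -0.11, or 0.11 without the first U937 LPS library.

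CXCL8, which encodes a neutrophil attractant, stood at 27.8 and 14.1 TPM in THP-1 after LPS, 3.16 and 1.51 TPM in untreated THP-1, 4.92 and 44.6 TPM in U937 after LPS and 5.95 and 6.34 TPM in untreated U937. The U937 LPS libraries lay on either side of the untreated ones, and the difference of 1.49 ± 0.98 was 0.02 without the first of them. CXCL1, also a neutrophil attractant, stood at 9 and 4.55 TPM in THP-1 after LPS, 2.01 and 1.08 TPM in untreated THP-1, 0 in both U937 LPS libraries and 0 and 0.252 TPM in untreated U937. CXCL1 was a member through the THP-1 LPS group alone. Its difference was 1.74 ± 0.47 with or without that library (limma adjusted p = 0.519). The 4 members of the CXC list had a median of 0.72, or -0.01 without it.

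**Figure D4:**
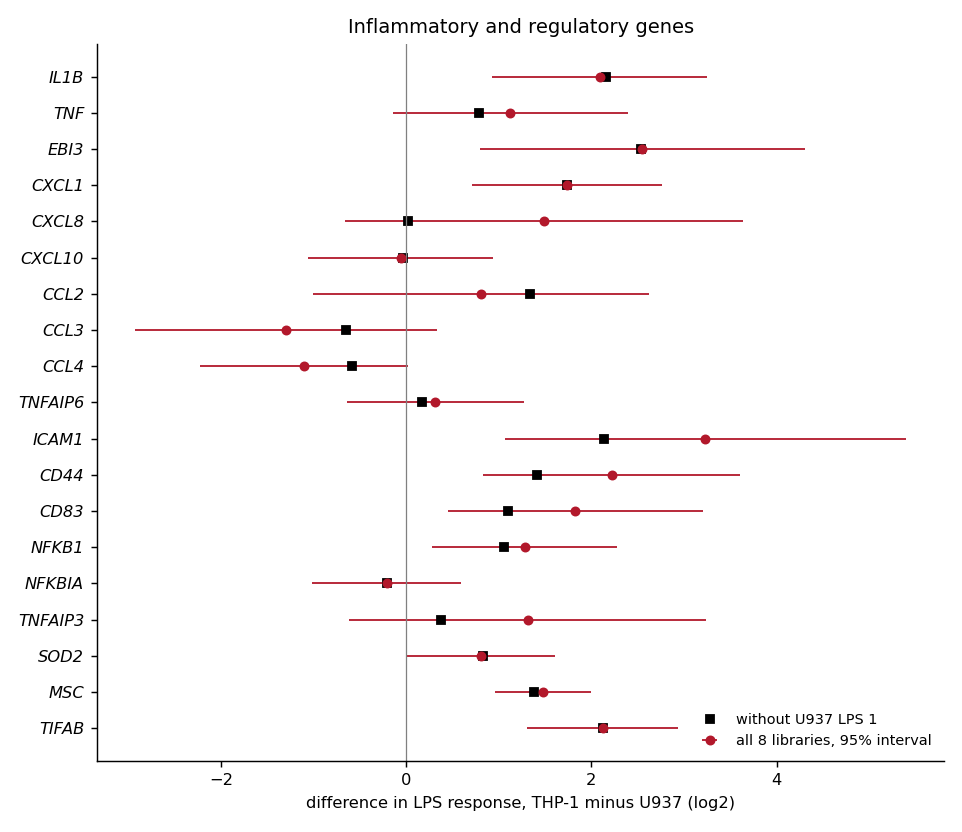
Difference in LPS response, THP-1 minus U937, on the log2 scale for 19 genes of the inflammatory response and its regulators, with 95% intervals from the limma fit (circles) and the value without the first U937 LPS library (squares). The intervals are not adjusted for the number of genes, and none of these 19 passed after adjustment; NFKBIA and CXCL10 lie at -0.21 and -0.06, and CXCL8 moves to 0.02 without that library.

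TNFAIP6 was the third member called in both lines. It stood at 17.5 and 12.3 TPM in THP-1 after LPS, 2.10 and 0.362 TPM in untreated THP-1, 4.56 and 5.74 TPM in U937 after LPS and 0 in both untreated U937 libraries. It rose by 2.93 ± 0.31 in THP-1 (n = 2; limma adjusted p = 0.00205) and by 2.61 ± 0.31 in U937 (adjusted p = 0.0117), a difference of 0.31 ± 0.43 (95% interval -0.64 to 1.27). The sign of this difference rests on the pseudocount, at -1.84 with 0.1 and -1.49 with voom, with untreated U937 at 0, and it was 0.18 without the first U937 LPS library. The U937 call was kept in 15 of 21 alternatives (adjusted p from 0.000262 to 0.631). PLAUR, the urokinase receptor gene, went the other way round: 134 and 117 TPM in THP-1 after LPS, 90.6 and 99.5 TPM in untreated THP-1, 286 and 137 TPM in U937 after LPS and 65.3 and 68.7 TPM in untreated U937. Both lines had LPS above untreated, U937 by more, with a difference of -1.15 ± 0.53, or -0.62 without that library. MMP2, a gelatinase gene, had 1.03, and 0.02 without it. The 13 members among matrix, protease and coagulation genes had 1 without overlap and higher in THP-1 and 2 lower, and a median of 0.31, or 0.02 without it.

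ICAM1 had the largest difference among adhesion genes. It stood at 62.3 and 39.0 TPM in THP-1 after LPS, 4.43 and 3.57 TPM in untreated THP-1, 24.8 and 116 TPM in U937 after LPS and 52.2 and 47.8 TPM in untreated U937. The THP-1 LPS libraries were far above their untreated pair, while those of U937 lay on either side. The difference was 3.23 ± 0.99 (SE, n = 2; limma adjusted p = 0.622) and 2.14 without the first U937 LPS library. CD44, a hyaluronan receptor gene, stood at 20.1 and 10.2 TPM in THP-1 after LPS, 4.31 and 3.55 TPM in untreated THP-1, 23.6 and 74.0 TPM in U937 after LPS and 61.6 and 64.0 TPM in untreated U937 (difference 2.22 ± 0.63, or 1.41 without it). CD83, a marker of activated dendritic cells, was at 59.5 and 46.6 TPM in THP-1 after LPS, 13.4 and 16.7 TPM in untreated THP-1, 30.9 and 85.9 TPM in U937 after LPS and 54.5 and 54.7 TPM in untreated U937 (difference 1.83 ± 0.63, or 1.10 without it). All 3 genes were lower in untreated THP-1 than in untreated U937, a level that was not tested. The 13 members of the list had 3 without overlap and higher in THP-1 and 1 lower, with a median of 0.61, or -0.07 without that library.

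Of 14 MAP kinase feedback members the responses of 6 did not overlap with THP-1 higher and those of 2 with THP-1 lower, beside 14.6% and 9.17% of all members, and the difference from that background was not tested. DUSP1, the gene of a phosphatase that inactivates p38 and JNK, stood at 6.46 and 3.87 TPM in THP-1 after LPS, 0.592 and 2.29 TPM in untreated THP-1, 1.47 and 1.11 TPM in U937 after LPS and 5.54 and 7.57 TPM in untreated U937. DUSP2, a related phosphatase gene, stood at 21.3 and 25.4 TPM in THP-1 after LPS, 6.58 and 8.26 TPM in untreated THP-1, 9.64 and 12.4 TPM in U937 after LPS and 24.7 and 33.3 TPM in untreated U937. In both genes the LPS pair lay above the untreated pair in THP-1 and below it in U937. The differences were 3.11 ± 0.55 (limma adjusted p = 0.124) and 2.85 ± 1.02 (0.722), and 3.22 and 2.69 without the first U937 LPS library. The list's median was 0.52, and 0.31 without it.

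EGR1, an immediate-early transcription factor gene, stood at 13.8 and 16.7 TPM in THP-1 after LPS, 8.12 and 11.4 TPM in untreated THP-1, 0.863 and 1.89 TPM in U937 after LPS and 4.60 and 3.07 TPM in untreated U937. Here too the LPS pair was the higher in THP-1 and the lower in U937, with a difference of 1.64 ± 0.42 (limma adjusted p = 0.423), or 1.33 without the first U937 LPS library. JUNB, an AP-1 subunit gene, had a difference of 2.05 ± 1.28, or 1.09 without it. The 13 immediate-early and AP-1 members had 2 (15.4%) without overlap in each direction and a median of 0.70, or 0.32 without it.

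Among 8 mRNA decay regulators 3 (37.5%) were without overlap, all higher in THP-1. ELAVL1, the gene of HuR, which binds AU-rich elements and stabilises many cytokine mRNAs, stood at 43.0 and 31.1 TPM in THP-1 after LPS, 14.8 and 23.0 TPM in untreated THP-1, 18.0 and 21.7 TPM in U937 after LPS and 49.0 and 46.0 TPM in untreated U937. Again the pairs moved in opposite directions without overlap (difference 2.17 ± 0.44, n = 2; limma adjusted p = 0.22; 2.04 without the first U937 LPS library). ZFP36L2, whose protein destabilises such mRNAs, had a difference of 1.53 ± 0.46, or 1.08 without it. The list's median was 1.02, and 0.25 without it.

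Of 21 interferon-stimulated members 4 (19.0%) were without overlap and higher in THP-1 and 2 (9.52%) lower. Their median was 0.35, the value over all members, or 0.02 without the first U937 LPS library. OAS2, an antiviral synthetase gene, stood at 9.12 and 7.04 TPM in THP-1 after LPS, 3.25 and 3.13 TPM in untreated THP-1, 0.132 and 1.64 TPM in U937 after LPS and 1.65 and 1.56 TPM in untreated U937. OAS2 was a member through the THP-1 LPS group alone. The THP-1 LPS pair was above its untreated pair and the U937 pair overlapped (difference 1.69 ± 0.47, or 1.08 without that library). IFI6, an interferon-inducible mitochondrial protein gene, had a difference of 1.37, or 1.24 without it. IFIT1, below the limit for members, had 0.36 ± 0.76, or 0.12 without it. Among 14 members of the interferon and receptor list, IFNGR2, a chain of the interferon gamma receptor, had the largest difference, 1.54, or 0.71 without it. That list had 1 without overlap in each direction and a median of 0.75, or 0.08 without it.

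In the list of inflammatory effector enzymes 2 of 15 members (13.3%, beside 14.6% of all members) were without overlap, both higher in THP-1. SOD2, the mitochondrial superoxide dismutase gene, stood at 35.0 and 23.8 TPM in THP-1 after LPS, 9.18 and 11.7 TPM in untreated THP-1, 39.4 and 38.0 TPM in U937 after LPS and 24.4 and 26.6 TPM in untreated U937. LPS libraries were above untreated ones in both lines, by more in THP-1 (difference 0.81 ± 0.36, or 0.83 without the first U937 LPS library). HMOX1, the haem oxygenase 1 gene, stood at 64.8 and 41.7 TPM in THP-1 after LPS, 12.4 and 17.3 TPM in untreated THP-1, 14 and 19.1 TPM in U937 after LPS and 15.8 and 15.1 TPM in untreated U937 (difference 1.68 ± 0.86, or 1.46 without it). ACSL1, an acyl-CoA synthetase gene, had 1.60, and 0.17 without it. The list's median was 0.73, or 0.08 without it. PTGS2, the cyclooxygenase 2 gene and no member, was at 2.45 and 1.07 TPM in THP-1 after LPS, 0.667 and 0.746 TPM in untreated THP-1, 0 in both U937 LPS libraries and 0.238 and 0.535 TPM in untreated U937. FTH1, the ferritin heavy chain gene, was another of the 9 members called in THP-1, at 2276 and 2188 TPM after LPS and 1025 and 780 TPM untreated, against 1517 and 1283 TPM and 679 and 717 TPM in U937. Its call (limma adjusted p = 0.041) was kept in 5 of 21 alternatives, and its difference was 0.32 ± 0.30, or -0.10 after median-of-ratios scaling.

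Among the 8 largest positive differences without overlap, small RNA genes left out, were COTL1 at 3.93, ICAM1 at 3.23 and DUSP1 at 3.11, and the largest was that of NENF, which encodes the secreted factor neudesin. It stood at 49.9 and 67.4 TPM in THP-1 after LPS, 5.68 and 15.5 TPM in untreated THP-1, 15.1 and 9.5 TPM in U937 after LPS and 72.6 and 61.1 TPM in untreated U937. The difference was 4.87 ± 1.17 (limma adjusted p = 0.351) and 5.18 without the first U937 LPS library. Its libraries also lay apart within groups of the other lines, at 57.4 and 18.0 TPM in stimulated Jurkat and 75.9 and 9.09 TPM in stimulated BJAB, which enters its standard error. TAF10, a subunit gene of the general transcription factor TFIID, stood at 58.6 and 84.9 TPM in THP-1 after LPS, 9.54 and 18.9 TPM in untreated THP-1, 14.9 and 7.59 TPM in U937 after LPS and 37.3 and 19.9 TPM in untreated U937 (difference 3.58 ± 1.20, or 4.02 without that library). It too varied within pairs, with 120 and 24.6 TPM in stimulated Jurkat. PNMA1, a paraneoplastic antigen gene, SDF4, the gene of a Golgi calcium-binding protein, and RAC3, a relative of RAC1, had differences of 3.14, 3.12 and 3.03. Without the first U937 LPS library these were 2.45, 2.32 and 1.84. None of these 8 passed the threshold.

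On the negative side none was called, and the 8 largest differences without overlap, small RNA genes again left out, ran from -2.34 to -1.58. C6orf226 stood at 34.1 and 31.7 TPM in THP-1 after LPS, 42.3 and 56.0 TPM in untreated THP-1, 5.88 and 3.57 TPM in U937 after LPS and 0 and 1.63 TPM in untreated U937. NUDT7, the gene of a peroxisomal coenzyme A diphosphatase, stood at 42.6 and 38.2 TPM in THP-1 after LPS, 54.0 and 61.8 TPM in untreated THP-1, 23.7 and 11.3 TPM in U937 after LPS and 4.83 and 6.34 TPM in untreated U937. Both were lower after LPS in THP-1 and higher in U937, with differences of -2.34 ± 0.76 and -1.92 ± 0.53 (n = 2). Without the first U937 LPS library these were -2.05 and -1.41. CAMP, which encodes the antimicrobial peptide cathelicidin, stood at 1.05 and 1.62 TPM in THP-1 after LPS, 3.22 and 1.38 TPM in untreated THP-1, 10.5 and 11 TPM in U937 after LPS and 4.30 and 3.23 TPM in untreated U937. Its LPS pair was the higher one in U937 and overlapped with the untreated pair in THP-1 (difference -1.76 ± 0.56, and -1.79 without the first U937 LPS library). CAMP was a member through the U937 LPS group alone. Its THP-1 values rest on 3 and 4 recovered reads after LPS, the 4 likely overstated, and on 8 and 4 untreated. In THP-1, 3 reads would be 1.04 to 1.21 TPM. Its U937 values rest on 29 and 29 reads after LPS and 6 and 8 untreated. The other 5 were HIST2H2BC at -2.13, LINC00853 at -2.02, FAM228B and CASTOR1, an arginine sensor of the mTORC1 pathway, at -1.59 each, and LHPP, a phosphatase gene, at -1.58. In this order they were -2.24, -1.43, -1.54, -2.02 and -1.87 without the first U937 LPS library. Untreated U937 held 0 and 3 recovered reads of C6orf226 and 1 and 0 of HIST2H2BC. HIST2H2BC and LINC00853 were members through untreated THP-1 alone, and CASTOR1 through the U937 LPS group alone. All 8 kept their sign in all 21 alternatives. They were picked for responses without overlap, so leaving out 1 library could not change their sign. The kept sign is thus no added support.

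Several lists outside the inflammatory response had a positive median with all libraries and one nearer 0 or below it without the first U937 LPS library, as over all members. The 36 cell cycle members had a median of 0.73 with all libraries and -0.11 without the first U937 LPS library, the 20 glycolysis members 0.68 and 0.05, and the 23 cholesterol synthesis members 0.49 and -0.25. For 23 members of the unfolded protein and stress response it was 0.68 and -0.02, for 27 of ribosome biogenesis 0.21 and -0.10, and for 20 long housekeeping genes 0.60 and 0.11. Single genes of these lists moved in the same way. The cell cycle genes CDK6 and CCND3 had differences of 1.51 and 1.38 with all libraries and 0.85 and 0.35 without that one. SREBF2, a regulator of sterol synthesis, had 2.36 with all libraries and 0.94 without it. HERPUD1 and CANX of the stress response had 1.54 and 1.28, and 0.52 and 0.27 without it. POLR2A and FASN, both long transcripts, had 1.81 and 1.65, and 0.42 and 0.44 without it. In other lists it was not so. The 57 cytosolic ribosomal protein genes had a median of 0.15 and 0.23. Of them 10 (17.5%, beside 14.6% of all members) were without overlap, all higher in THP-1. RPL23 stood at 1570 and 2303 TPM in THP-1 after LPS, 1629 and 1512 TPM in untreated THP-1, 1061 and 1586 TPM in U937 after LPS and 1956 and 1651 TPM in untreated U937. Its difference was 0.75 ± 0.36, or 0.46 without that library and 0.32 after median-of-ratios scaling. RPS12 followed with 0.51 ± 0.31, or 0.086 after that scaling. After median-of-ratios scaling the median of this list was -0.27, so its sign depends on the scaling. The 39 nuclear-encoded respiratory chain genes had -0.27 and -0.06, and -0.69 after median-of-ratios scaling. Of them 7 (17.9%, beside 9.17% of all members) were without overlap, all lower in THP-1.

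**Figure D5:**
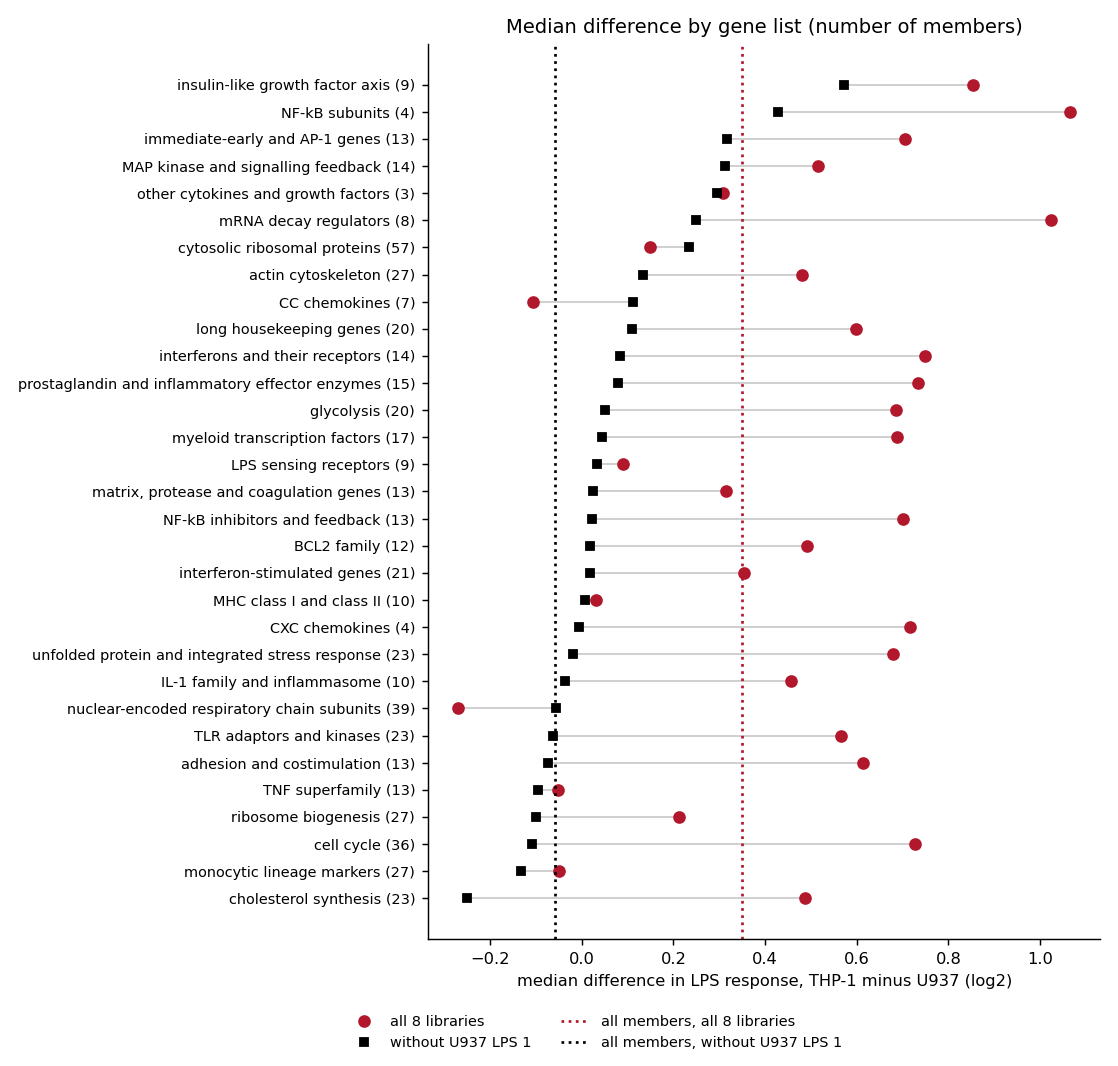
Median difference in LPS response, THP-1 minus U937, for each list with at least 3 members (number of members in brackets), with all 8 libraries (circles) and without the first U937 LPS library (squares); dotted lines are the medians over all members, 0.35 and -0.06. Many of the lists lie to the right of the line in both. Without that library the medians of the insulin-like growth factor list and the NF-kB subunits are the largest, at 0.57 and 0.43. The immediate-early and MAP kinase feedback lists follow at 0.32 and 0.31.

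Among lineage genes the 27 monocytic marker members had a median of -0.05, or -0.13 without the first U937 LPS library, with 2 without overlap and higher in THP-1 and 3 lower, or 2 and 11 without it, beside 14.6% and 9.17% of all members, or 16.7% and 22.6% without it. The count lower in THP-1 was larger without that library in other lists as well: 13 against 3 with all libraries for the cell cycle, 12 against 4 for cholesterol synthesis, 8 against 1 for glycolysis, 7 against 4 for ribosome biogenesis, 4 against 1 for the actin cytoskeleton, the tumour necrosis factor superfamily and the interferon and receptor list, and 3 against 1 for LPS receptors and adhesion genes. The count higher in THP-1 was 16 against 10 for the cytosolic ribosomal proteins. CYBB, the gene of the phagocyte oxidase subunit gp91phox, and CSF3R, the receptor for G-CSF, had the largest differences at 1.30 and 0.96, and 0.46 and -0.29 without it. The 12 members of the BCL2 family had 2 without overlap and higher and 3 lower, with a median of 0.49, or 0.02. BIK, a BH3-only death gene, was at 133 and 108 TPM in THP-1 after LPS, 166 and 147 TPM in untreated THP-1, 168 and 121 TPM in U937 after LPS and 76.8 and 69.4 TPM in untreated U937, lower after LPS in THP-1 and higher in U937 (difference -1.34 ± 0.38, or -1.11 without that library). BAK1, a pore-forming member, had 1.40, and -0.17 without it. The 10 MHC class I and class II members had 1 without overlap and higher and 2 lower, a median of 0.03, or 0.01, and TAPBP, the tapasin gene, at 1.18, or 0.14 without it. No member of any list other than IGFBP3 passed the test in either direction.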

How the data were processed

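RNA from 16 libraries of 4 cell lines was made into cDNA with SmartSeq2, an oligo-dT full-length method, per the labels' protocols, and reads were aligned with TopHat2 to hg19, per the submitters' processing notes. The authors deposited TPM per gene, 1 table per library, from unique alignments as the deposited tables are named. The counting tool and annotation are not stated in the labels.

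From these TPM, log2(TPM + 1) was fitted with limma 3.58.1 (R 4.3.3) over all 16 libraries with 1 mean per group and an intensity trend, on the 14398 genes at 1 TPM or more in at least 2 libraries. The contrast was the LPS change of THP-1 minus that of U937, with Benjamini-Hochberg adjustment over all tested genes and a threshold of 0.05. SE and 95% intervals come from that fit (11.2 degrees of freedom), and fold changes on this scale understate those of low genes. TPM steps gave whole reads within a tolerance of 0.001 for 17860 of 19092 genes above 0. Counts of the second THP-1 LPS library are likely overstated, being even in every named gene, and the fit with voom used them as recovered. Limits at 3 reads cover counting error only. The scripts were tested on simulated data. For the recovery of reads these were drawn from the recovered counts, so that test could not show an overstated library.

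The members and lists were chosen with earlier results of these data known. Named were members past the threshold, the 8 largest positive and negative differences without overlap, fixed genes of the LPS response, and up to 4 genes per list, with small RNA genes left out of rankings unless called. IGFBP6, IGF1R, IGF2R, IRS2, IGFBP7, ACTB, TNFAIP6 and CD83 were named after their values were seen. Some genes that this rule names are not reported here.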

Additional observations from a re-analysis of the deposited data

Results flagged for a closer look

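The test of the difference between the THP-1 and U937 responses, with limma, was passed by 2 members. IGFBP3 had a difference of 2.98, with both THP-1 LPS libraries above all others and no read in U937. It passed the filters through the THP-1 LPS group alone, so this separation is no added support. MIR221 had a difference of 2.62, which rests on 1 and 2 reads in untreated U937 with none in any other library, so that a change was not detectable at this depth.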

How the results depend on the processing

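Over 21 alternatives the count of members called for the difference (2) was 8 with a pseudocount of 5, 1 with a filter at 5 TPM, with array weights and with the THP-1 and U937 libraries alone, 0 among members at 20 TPM, and 0 with voom on the recovered reads, where 446 members had an unadjusted p under 0.05. Leaving out 1 library gave 2 to 2342. Over all tested genes (7) it was 14 with a pseudocount of 5, 26 without a filter, 4 after quantile normalization and with the first stimulated library of U937 and that of BJAB left out, 3 without a trend and with the length trend removed, 1 with the filter at 5 TPM and with array weights, 0 with voom, and 3 to 2567 without 1 library. For THP-1 members (9) it was 28 with a pseudocount of 5 and without the first stimulated libraries, 22 after quantile normalization, 32 with array weights, 2 with the 8 libraries alone, 14 with the length trend removed, 5 with voom and 8 to 20 without 1 library. For U937 members (4) it was 9 with a pseudocount of 5, 2 with array weights, with the 8 libraries alone and at 20 TPM, and 3 to 4525 without 1 library. The replicate block gave 2 members and 2 tested genes for the difference, and 4 members in each line. Over members, libraries of the same number showed no shared deviation (r = 0.01 in THP-1 and -0.06 in U937). Each r rests on 1 LPS pair and 1 untreated pair, and in U937 the first LPS library stood apart. It therefore cannot show whether the numbers pair the libraries, and no label says what they mark. Of 1803 values for 86 named genes, 13 changed sign under settings other than leaving out 1 library and 10 when 1 library was left out, in 10 genes together. CXCL10 was 1.26 with a pseudocount of 0.1, 0.10 with the length trend removed, 1.503 with voom and -0.71 to 0.60 without 1 library. TNFAIP6 was -1.84 with a pseudocount of 0.1, -1.49 with voom and -0.28 to 0.91 without 1 library. CCL2 was -0.32 with a pseudocount of 5 and -0.16 to 1.77 without 1 library, IFIT1 -0.10 with the length trend removed and FTH1 -0.10 after median-of-ratios scaling. VEGFA was -0.082 after median-of-ratios scaling, -0.14 after quantile normalization and -0.10 with the length trend removed. Without the first stimulated libraries BAK1 was -0.17 and CSF3R -0.29, with ranges without 1 library of -0.17 to 2.96 and -0.29 to 2.21. LY96 ran from -1.12 to 0.35 and CD14 from -0.32 to 0.50. The cause of these changes was not tested. Genes with few reads, such as MIR221, are limited by depth.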
